A study of Homo sapiens with 12 samples.

Results

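The 8 genes described here write, read or remove methylation of cytosine in DNA. They are DNMT1, DNMT3A, DNMT3B, UHRF1, UHRF2, TET1, TET2 and TET3, taken by gene symbol from RNA-seq count tables that hold 28008 genes each, and all 8 had a row in both tables. The cells were QGP-1 and BON-1, established human lines from pancreatic neuroendocrine tumors (pNETs). Both carried tet-MUC1shRNA, a short hairpin RNA against MUC1 in a puromycin-selected lentiviral vector that is switched on by doxycycline (DOX). For each line, 3 cultures received vehicle (0.1% DMSO) and 3 received 500 ng/mL DOX for 7 days, which gave 12 libraries in 4 groups. The 2 lines were grown in different media. No DOX-treated library with a control hairpin was analysed here, so that DOX itself and MUC1 silencing cannot be told apart. The study asked how the transcriptomes of pNET cells depend on MUC1-C, the transmembrane subunit of MUC1, and on its partner MYC.

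DNA methylation in mammals sits mostly on CpG dinucleotides. DNMT3A and DNMT3B place it on unmethylated DNA (de novo methylation), while DNMT1 copies it onto the new strand behind the replication fork, where UHRF1 brings DNMT1 to hemimethylated CpG sites. UHRF2 is a paralog of UHRF1, and UHRF2 also binds hydroxymethylated cytosine. The TET dioxygenases oxidize methylcytosine to hydroxymethylcytosine and further, after which the base can be excised or lost by dilution. TET2 and DNMT3A are known as frequently mutated genes in blood cancers, and DNMT1 and UHRF1 as genes of proliferating cells.

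Depth ranged from 38224144 to 50525926 counts per library for QGP-1 and from 15981954 to 28484324 for BON-1, and each of the 8 genes had between 569 and 7819 counts in a QGP-1 library and between 305 and 5360 in a BON-1 library. Replicate libraries differed by more than counting error (chi-square of 5.92 to 29.7 per gene), and the deeper QGP-1 libraries carry the smaller counting error. The targeted gene, MUC1, fell in both lines. Its level in CPM (the count relative to the TMM-adjusted depth of the library) was 7.19, 5.81 and 5.65 in the QGP-1 vehicle libraries and 0.705, 1.04 and 0.744 with DOX. In BON-1 cells the MUC1 level went from 20.6, 20.7 and 15.6 CPM to 1.48, 2.65 and 3.97 CPM. The log2 fold change of MUC1 was -2.91 (SE 0.226) in QGP-1 and -2.79 (SE 0.218) in BON-1. Neuroendocrine expression was looked at with 12 marker genes, whose summed level was 6132 to 7543 CPM in QGP-1 and 9811 to 15641 CPM in BON-1, although NEUROD1 was at 0 counts in QGP-1. Single markers were uneven in vehicle cells (CPM scaled over the 12 libraries). CHGA was at 7875 and SCG5 at 4.47 in BON-1, and SCG2 was at 2855.5 and SSTR2 at 1.41 in QGP-1. These levels do not establish the origin of the cells. The summed markers of other cell types were lower, at 1.14 to 3.66 CPM (QGP-1) and 5.22 to 11.55 CPM (BON-1) for 6 fibroblast genes, 10.65 to 21.0 and 26.0 to 57.4 CPM for 6 immune genes, 0.862 to 1.60 and 32.4 to 41.4 CPM for 4 endothelial genes, and 28.9 to 151 and 19.6 to 45.9 CPM for 4 acinar genes. CD3E and CPA1 were at 0 counts in QGP-1, and MS4A1 and PNLIP in BON-1. With DOX, each library had a higher immune sum and a lower acinar sum than any vehicle library of its line. Few of these genes passed the filter on low counts. In each line 2 of the 6 immune genes passed, and 1 of the 4 acinar genes in QGP-1 and 2 in BON-1. Of the 6 fibroblast genes 1 passed per line, COL1A1 in QGP-1 (log2 fold change -1.16) and LUM in BON-1 (1.01). The fibroblast sum was lower with DOX in QGP-1 (at most 1.32 CPM, vehicle at least 1.81) and higher in BON-1 (at least 10.7 CPM, vehicle at most 6.65). The neuroendocrine sum was lower with DOX in BON-1 (at most 10262 CPM, vehicle at least 12185), where CHGA fell (log2 fold change -1.46). Single neuroendocrine markers went both ways in BON-1, with 5 of 12 lower and 2 higher at an adjusted p below 0.05 (edgeR). All genes tested there had 18.3% lower and 17% higher. In QGP-1, 0 of 11 markers tested were lower and 4 higher, against 17.7% and 17.3% of all genes. The part of these shifts in the results below was not tested.

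To compare levels between genes, the deposited TPM values, which correct for gene length, of the 8 genes were expressed as shares of their sum within each library. DNMT1, the maintenance enzyme, was the most abundant member in both lines, with 32.7% ± 1.29 of the summed TPM in QGP-1 vehicle cells and 38.68% ± 0.946 in BON-1 vehicle cells (SD, n = 3). In QGP-1 vehicle cells the order continued with DNMT3B (15.6% ± 0.873), UHRF1 (11.62% ± 0.700), TET3 (10.7% ± 0.917), TET2 (10.5% ± 0.643), TET1 (8.21% ± 0.274), UHRF2 (5.71% ± 0.999) and DNMT3A (4.98% ± 0.0238). The libraries of UHRF1, TET3 and TET2 overlapped, as did those of UHRF2 and DNMT3A, so that these neighbours were not separated beyond their spread. In BON-1 vehicle cells UHRF1 came next after DNMT1 (13.8% ± 0.835), followed by DNMT3B (11.4% ± 1.72), UHRF2 (10.9% ± 0.227), TET2 (7.19% ± 0.0827), DNMT3A (7.06% ± 0.557), TET3 (6.08% ± 0.279) and TET1 (4.92% ± 0.132). There DNMT3B overlapped with UHRF2, and TET2 with DNMT3A. TET3 and TET1 thus closed the order in BON-1 cells but not in QGP-1 cells.

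Of the 8 genes, 1 was lower and 2 were higher with DOX in QGP-1 cells, at an adjusted p below 0.05 in edgeR's quasi-likelihood test over all genes. Across the 15089 genes tested in QGP-1, 17.7% were lower and 17.3% higher. In BON-1 cells 4 of the 8 genes were lower and 2 higher, against 18.3% lower and 17% higher among the 14625 genes tested. The vehicle and DOX libraries did not overlap for 4 of the 8 genes in QGP-1 and for 7 of 8 in BON-1, where 46.7% and 46.3% of all genes tested did not overlap. These counts are a description of the 8 genes. The median log2 fold change of the 8 genes was 0.15 in QGP-1 and -0.26 in BON-1, and that of all genes tested was -0.012 and -0.010. On deposited TPM, tested with limma on log2(TPM + 1), the median of all genes itself moved by 0.59 in QGP-1 and by -0.31 in BON-1, and there all 8 members were called higher in QGP-1 and 0 were called in BON-1. Relative to those medians DNMT3A was at -0.31 and -0.73, DNMT3B at -0.18 and -0.27, and TET2 at 0.35 and 0.22 in QGP-1 and BON-1. Before that centring, DNMT3A (0.29) and DNMT3B (0.42) in QGP-1 and TET2 (-0.090) in BON-1 had the opposite sign.

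**Figure D1:**
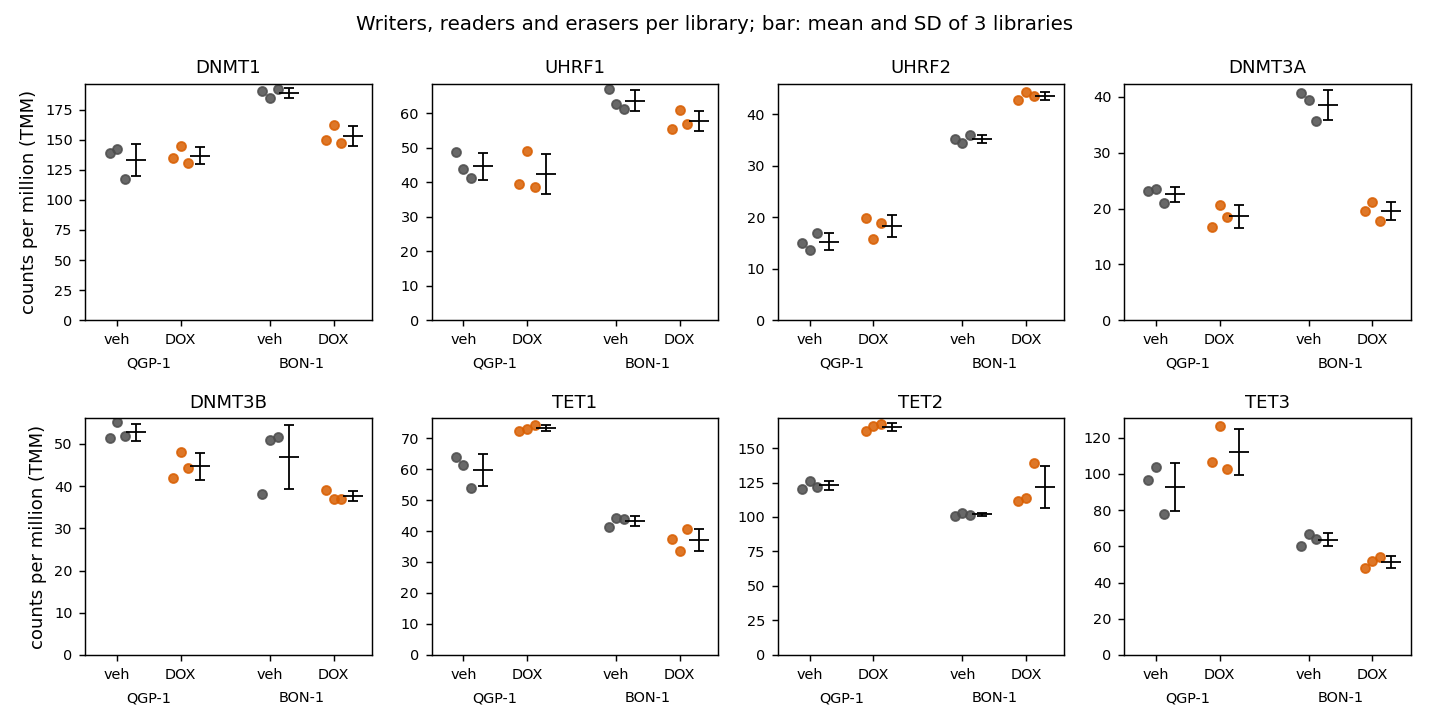
Level of each gene in TMM-scaled CPM (vertical axis from 0) in the 3 vehicle (grey) and 3 DOX (orange) libraries of each line, with the mean and SD as a black bar. With DOX the mean of DNMT3A was 19.6 CPM in BON-1 and 18.6 CPM in QGP-1, and the TET2 libraries with DOX lay above the vehicle libraries in both lines.

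The starts of the genes were searched for the letters bound by E2F factors and by MYC, because the study's question takes in both. The windows ran from 250 bases before to 50 after each RefSeq transcription start (GRCh38.p14), and all 8 genes had at least 1 window. DNMT3A had 6 windows, UHRF1 and TET1 had 3 each, TET2 and TET3 had 2 each, and the others had 1 each. The shares by gene given below were not matched for the number of windows. An E2F-type match (TTTCCCGC, TTTCGCGC, TTTGCCGC or TTTGGCGC, either strand) was present in DNMT1 and UHRF1. An E-box (CACGTG, the same on both strands) was present in DNMT3A, TET2 and TET3. No match was found in the windows of DNMT3B, UHRF2 and TET1. Over all 35116 windows, 3.31% held an E2F-type match and 7.26% an E-box, and of all 27305 genes 3.99% and 8.77% held one in at least 1 window. These are matches of letters only, and no binding was measured here. The stretch from 130 bases before to 10 bases after the start is printed 5′ to 3′ for the 5 genes with a match, with the match in capitals, to show how close to the start each lies. The windows are chr19:10194944-10195083 (minus strand) for DNMT1, chr19:4909371-4909510 (plus) for UHRF1, chr2:25252306-25252445 (minus) for DNMT3A, chr4:105145745-105145884 (plus) for TET2 and chr2:73984780-73984919 (plus) for TET3.
DNMT1: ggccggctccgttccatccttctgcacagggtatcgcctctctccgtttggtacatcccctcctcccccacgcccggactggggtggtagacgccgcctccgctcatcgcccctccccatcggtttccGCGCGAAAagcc
UHRF1: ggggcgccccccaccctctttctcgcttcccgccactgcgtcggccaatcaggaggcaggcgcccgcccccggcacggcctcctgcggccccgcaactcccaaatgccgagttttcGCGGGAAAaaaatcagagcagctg
DNMT3A: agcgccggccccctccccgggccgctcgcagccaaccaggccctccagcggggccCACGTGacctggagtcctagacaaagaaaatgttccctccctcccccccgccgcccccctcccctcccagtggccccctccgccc
TET2: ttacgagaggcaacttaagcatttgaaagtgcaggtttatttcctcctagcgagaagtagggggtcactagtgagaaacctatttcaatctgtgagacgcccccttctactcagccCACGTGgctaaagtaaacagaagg
TET3: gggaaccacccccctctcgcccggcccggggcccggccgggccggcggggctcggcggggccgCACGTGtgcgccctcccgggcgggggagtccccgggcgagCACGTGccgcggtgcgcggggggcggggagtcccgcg
The printed matches in DNMT1 and UHRF1 read on the minus strand relative to the gene. In DNMT1 the first matched base lay at -2, and in UHRF1 at -14, with a second UHRF1 match, on the plus strand, at -160 from another start that is not printed. The E-box began at -75 in DNMT3A, at -14 in TET2, and at -67 and -27 in TET3. The TET2 stretch had 4 CpG dinucleotides and a GC content of 46.4%, against 24 CpG and 87.1% in TET3, 14 CpG and 67.1% in DNMT1, 14 CpG and 68.6% in UHRF1, and 10 CpG and 75% in DNMT3A. The printed starts of DNMT1, UHRF1 and DNMT3A lie inside the annotated gene, and those of TET2 and TET3 at its outer end.

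DNMT1 (chromosome 19, 10133342 to 10231286, GRCh38), which copies methylation at the replication fork, fell in BON-1 cells. Its level was 190, 184 and 192 CPM in the BON-1 vehicle libraries and 150, 162 and 147 CPM with DOX, so that each DOX library was below each vehicle library. The log2 fold change was -0.30 (SE 0.0745, adjusted p = 0.00216), and the mean fell by 18.9%. In QGP-1 cells DNMT1 was at 138.7, 142.1 and 117.5 CPM with vehicle and at 135, 145 and 131 CPM with DOX, and the groups overlapped (log2 fold change 0.04, SE 0.0803, adjusted p = 0.723). The difference between the 2 responses, BON-1 minus QGP-1, was -0.33 (SE 0.110, adjusted p = 0.0393). It was no longer called when QGP-1 vehicle 3 (adjusted p = 0.118), QGP-1 DOX 2 (0.111), BON-1 vehicle 1 (0.0506), BON-1 vehicle 3 (0.0535), BON-1 DOX 1 (0.0593) or BON-1 DOX 3 (0.0574) was left out. S1PR2 lies partly within the DNMT1 locus on the same strand, and it had 261 to 345 counts per library in QGP-1 and 136 to 266 in BON-1.

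UHRF1 (chromosome 19, 4903080 to 4962154), the partner that recruits DNMT1, did not pass the test in either line. With vehicle it was at 48.8, 43.8 and 41.2 CPM in QGP-1 cells and with DOX at 39.4, 49.1 and 38.6 CPM, with overlapping groups (log2 fold change -0.07, SE 0.103, adjusted p = 0.616). In BON-1 cells UHRF1 was at 67.1, 62.7 and 61.2 CPM with vehicle and 55.5, 61.0 and 57.0 CPM with DOX, so that the groups just failed to overlap (log2 fold change -0.14, SE 0.0856, adjusted p = 0.213). The values of UHRF1 therefore give no measured change at this spread, and they do not show that the levels were alike.

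UHRF2 (chromosome 9, 6413151 to 6507054), the paralog of UHRF1, rose in BON-1 cells. It went from 35.1, 34.4 and 35.9 CPM with vehicle to 42.7, 44.4 and 43.5 CPM with DOX, with tight and separate groups (log2 fold change 0.31, SE 0.0926, adjusted p = 0.00998). This call was lost without BON-1 vehicle 2 (adjusted p = 0.0520). In QGP-1 cells UHRF2 was at 14.92, 13.67 and 16.98 CPM with vehicle and at 19.9, 15.8 and 18.9 CPM with DOX, and the groups overlapped. The QGP-1 log2 fold change of 0.26 (SE 0.119) did not pass the test (adjusted p = 0.105), except when QGP-1 vehicle 3 (0.0488) or QGP-1 DOX 2 (0.0494) was left out. The responses of UHRF2 in the 2 lines differed by 0.06 (SE 0.150, adjusted p = 0.851). Within the UHRF pair, UHRF1 made up 55.8% ± 1.43 of the summed TPM in BON-1 vehicle cells and 48.1% ± 0.772 with DOX (SD, n = 3), and UHRF2 held the greater part in each BON-1 library with DOX (51.02% to 52.4%). In QGP-1 cells UHRF1 held 67.2% ± 3.73 with vehicle and 61.8% ± 5.81 with DOX, and those libraries overlapped. With 3 against 3 libraries an exact 2-sided permutation test cannot go below 0.1, which is the value for the BON-1 shares. The QGP-1 value was 0.2.

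The de novo enzyme DNMT3A (chromosome 2, 25227855 to 25342590) had the greatest change among the 8 genes. In BON-1 cells it was at 40.7, 39.4 and 35.6 CPM with vehicle and at 19.6, 21.2 and 17.9 CPM with DOX. Each DOX library was thus below each vehicle library, with a log2 fold change of -0.98 (SE 0.109, adjusted p = 5.10e-08), and the mean fell by 49.3%. In QGP-1 cells DNMT3A started lower, at 23.1, 23.6 and 21.0 CPM, and was at 16.6, 20.7 and 18.5 CPM with DOX. The QGP-1 groups did not overlap either, but the log2 fold change of -0.28 (SE 0.105) missed the threshold (adjusted p = 0.0544). It passed without QGP-1 vehicle 3 (adjusted p = 0.0417) or QGP-1 DOX 2 (0.0348). The fall was greater in BON-1 than in QGP-1 by 0.69 on the log2 scale (interaction -0.69, SE 0.155, adjusted p = 0.00297), and this difference was called in all 12 fits that left out 1 library each.

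DNMT3B (chromosome 20, 32762385 to 32809359), the other de novo enzyme, was called lower in both lines. In QGP-1 cells it went from 51.5, 55.1 and 51.9 CPM to 41.9, 48.2 and 44.2 CPM, with separate groups (log2 fold change -0.24, SE 0.0816, adjusted p = 0.0346). In BON-1 cells DNMT3B was at 38.2, 50.9 and 51.6 CPM with vehicle and at 39.0, 37.1 and 36.8 CPM with DOX. Vehicle 1 lay among the DOX libraries, and DNMT3B was the only member whose BON-1 groups overlapped (log2 fold change -0.31, SE 0.106, adjusted p = 0.0218). Neither call held in every fit that left out 1 library. The log2 fold change stayed negative in each of those fits (-0.29 to -0.18 in QGP-1, -0.45 to -0.25 in BON-1). In QGP-1 the call did not hold without vehicle 1 (adjusted p = 0.0622), vehicle 2 (0.137), DOX 1 (0.113) or DOX 3 (0.0918), with library size in place of TMM (0.0556) and in 1 fit of both lines (0.0650). The BON-1 call was lost without vehicle 2 (0.123), vehicle 3 (0.115) or DOX 2 (0.0550). The responses of DNMT3B in the 2 lines differed by -0.06 (SE 0.141, adjusted p = 0.825).

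The make-up of the DNMT family was compared by shares of its summed TPM. DNMT1 held 61.4% ± 1.87 with vehicle and 66.1% ± 1.22 with DOX in QGP-1, against 67.7% ± 2.10 and 71.0% ± 0.968 in BON-1 (SD, n = 3), while its own level was not called higher in either line. The DNMT3A share was 9.34% ± 0.142 with vehicle and 8.04% ± 0.516 with DOX in QGP-1, and 12.4% ± 1.11 and 8.10% ± 0.353 in BON-1. Each DNMT3A share with DOX was below each with vehicle in both lines. The DNMT3B share was 29.3% ± 1.77 with vehicle and 25.8% ± 0.720 with DOX in QGP-1, whereas in BON-1 it was 19.99% ± 2.82 with vehicle and 20.9% ± 1.13 with DOX. The exact permutation p was 0.1, the smallest possible, for each of these shares except DNMT3B in BON-1 (p = 0.8), whose direction also turned without BON-1 vehicle 1 (-0.75 percentage points). The TPM ratio of DNMT3B to DNMT3A was 3.13 ± 0.161 with vehicle and 3.22 ± 0.128 with DOX in QGP-1, and 1.64 ± 0.348 and 2.58 ± 0.221 in BON-1.

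**Figure D2:**
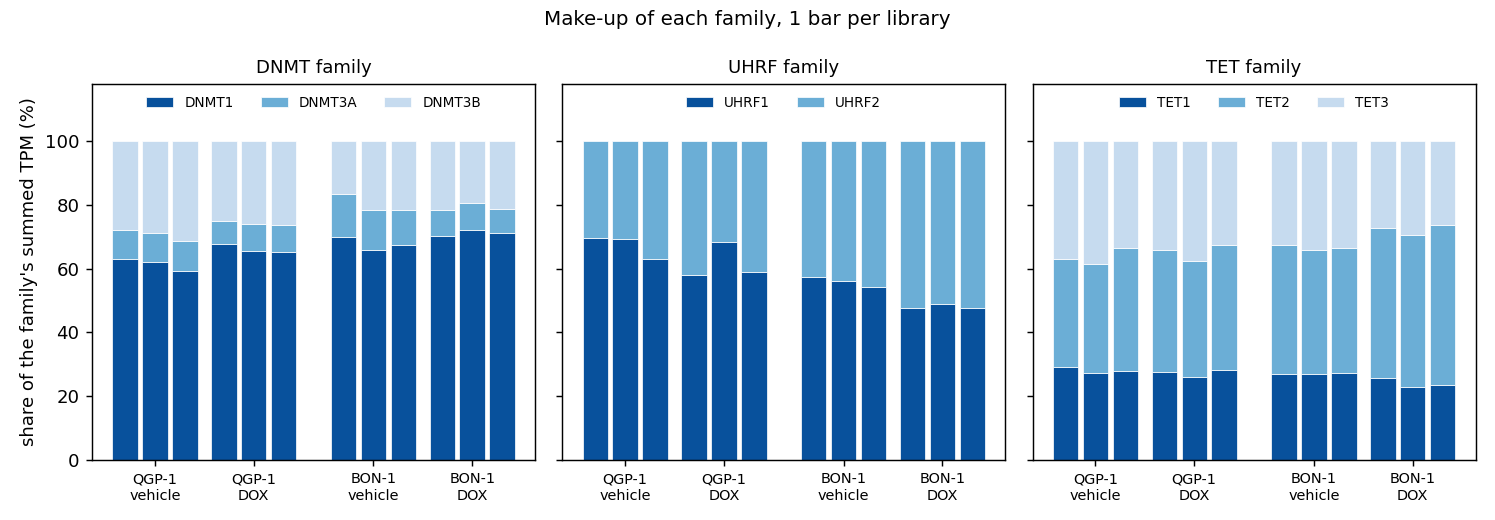
Share of each gene in the summed TPM of its family (vertical axis, percent), 1 stacked bar for each of the 12 libraries. In BON-1 cells UHRF2 went from 44.2% to 51.9% of the UHRF pair and TET2 from 39.5% to 48.2% of the TET family, and DNMT3A from 12.4% to 8.10% of the DNMT family.

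TET2 (chromosome 4, 105145875 to 105279816), an eraser without the CXXC domain of its paralogs, was the only member called higher in both lines. In QGP-1 cells it rose from 120, 126 and 122 CPM to 162, 166 and 168 CPM. Both groups were tight and well apart, with a log2 fold change of 0.43 (SE 0.0633, adjusted p = 0.000173). In BON-1 cells TET2 was at 100.8, 103.2 and 101.7 CPM with vehicle and at 111, 114 and 139 CPM with DOX, where DOX 3 stood above the other libraries (log2 fold change 0.25, SE 0.0842, adjusted p = 0.0194). The BON-1 call was lost without DOX 3 (log2 fold change 0.13, adjusted p = 0.220), vehicle 2 (0.0590) or vehicle 3 (0.0718), and with library size in place of TMM (0.0630). The log2 difference between the lines of -0.16 (SE 0.114, adjusted p = 0.365) did not pass the test, except without BON-1 DOX 3 (0.0493). The antisense gene TET2-AS1 overlaps TET2 and had at most 3 counts in any library.

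TET1 (chromosome 10, 68560337 to 68694487), an eraser with a CXXC domain that binds CpG-rich DNA, responded differently in the 2 lines. It rose in QGP-1 cells from 63.8, 61.4 and 54.0 CPM to 72.4, 72.9 and 74.3 CPM (log2 fold change 0.29, SE 0.0795, adjusted p = 0.0109), and all DOX libraries were above all vehicle libraries. In BON-1 cells all DOX libraries were below all vehicle libraries, at 37.5, 33.5 and 40.6 CPM after 41.3, 44.2 and 43.9 CPM, but the log2 fold change of -0.21 (SE 0.0972) was not called (adjusted p = 0.0912). It was called without BON-1 DOX 3 (adjusted p = 0.0237) and with library size in place of TMM (0.0448). The difference between the lines was -0.49 (SE 0.127, adjusted p = 0.00861).

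TET3 (chromosome 2, 73984910 to 74108176) also responded differently in the 2 lines. In BON-1 cells it fell from 60.0, 66.9 and 64.2 CPM to 47.8, 52.2 and 54.3 CPM (log2 fold change -0.31, SE 0.0881, adjusted p = 0.00742), with no overlap. In QGP-1 cells TET3 was at 96.8, 104 and 78.0 CPM with vehicle and at 107, 127 and 103 CPM with DOX, with overlapping groups. The QGP-1 log2 fold change of 0.27 (SE 0.105) missed the threshold (adjusted p = 0.0589), but it passed with DESeq2 (0.0361), with no filter on low counts (0.00341), in 1 fit of both lines (0.0393), and without QGP-1 vehicle 2 (0.0394), DOX 1 (0.0446) or DOX 3 (0.0412). The difference between the lines was -0.57 (SE 0.143, adjusted p = 0.00761). For TET1 and TET3 this difference was called in all 12 fits that left out 1 library each.

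Within the TET family, the TET2 share went from 39.5% ± 0.866 to 48.2% ± 1.51 in BON-1 cells, while TET3 went from 33.4% ± 0.741 to 27.8% ± 1.62 and TET1 from 27.0% ± 0.275 to 24.0% ± 1.48 (SD, n = 3; exact permutation p = 0.1 for each, the smallest possible). In QGP-1 cells the 3 shares overlapped between groups, with TET2 at 35.7% ± 2.64 and 37.99% ± 1.44. The ratio of the summed TET TPM to the summed DNMT TPM was 0.551 ± 0.00286 with vehicle and 0.726 ± 0.0130 with DOX in QGP-1, and 0.318 ± 0.00683 and 0.403 ± 0.0526 in BON-1. In both lines each DOX library had a higher ratio than each vehicle library.

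**Figure D3:**
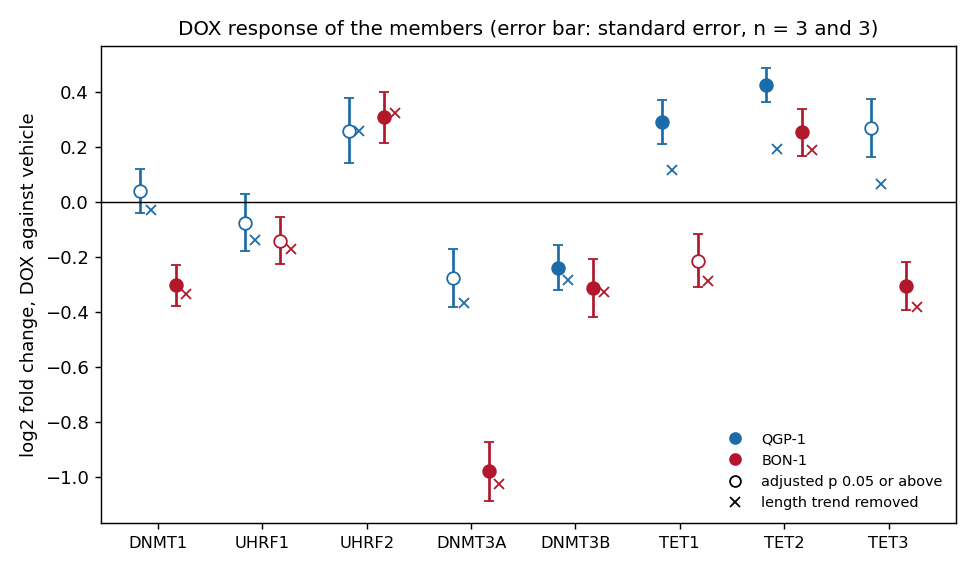
Log2 fold change of each gene with DOX (vertical axis) in QGP-1 (blue) and BON-1 (red), with standard errors. Filled circles passed an adjusted p of 0.05, and crosses give the value after the trend with gene length was removed, which brings the 3 TET genes of QGP-1 nearer to 0.

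The fold changes of all genes depended on gene length, and the TET genes are long. Relative length was taken from the ratio of counts to TPM, and in QGP-1 the lengths of TET1, TET2 and TET3 were 2.96, 4.79 and 3.54 times that of the median gene tested, which puts all 3 in the longest decile. The median log2 fold change in QGP-1 ran from -0.24 in the shortest decile of genes to 0.20 in the longest. In BON-1 it ran from -0.081 to 0.081. Set against the median of the longest decile, TET2 was higher by 0.23, TET1 by 0.094 and TET3 by 0.072 in QGP-1. In BON-1 TET2 was above that median by 0.17, whereas TET1 and TET3 were below it by 0.29 and 0.39 (differences of -0.29 and -0.39). When the length trend of each library was removed by an offset in the fit, TET1 was no longer called in QGP-1 (log2 fold change 0.12, adjusted p = 0.247) and TET3 was at 0.07 (adjusted p = 0.611). TET2 remained higher in QGP-1 (0.20, adjusted p = 0.0327) and missed the threshold in BON-1 (0.19, adjusted p = 0.0611). In the same fit TET1 passed as lower in BON-1 (-0.29, adjusted p = 0.0194), DNMT3A passed as lower in QGP-1 (-0.37, adjusted p = 0.0138), and DNMT3B was lower in both lines (-0.29 with adjusted p = 0.0142, and -0.33 with adjusted p = 0.0160). DNMT1, DNMT3A and TET3 stayed lower and UHRF2 higher in BON-1. The 4 differences between the lines were called in this fit too, at -0.30 for DNMT1 (adjusted p = 0.0442), -0.65 for DNMT3A (0.00357), -0.40 for TET1 (0.0224) and -0.45 for TET3 (0.0158). The source of the length trend was not tested, and the ratio of TET to DNMT transcripts above is not corrected for it.

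**Figure D4:**
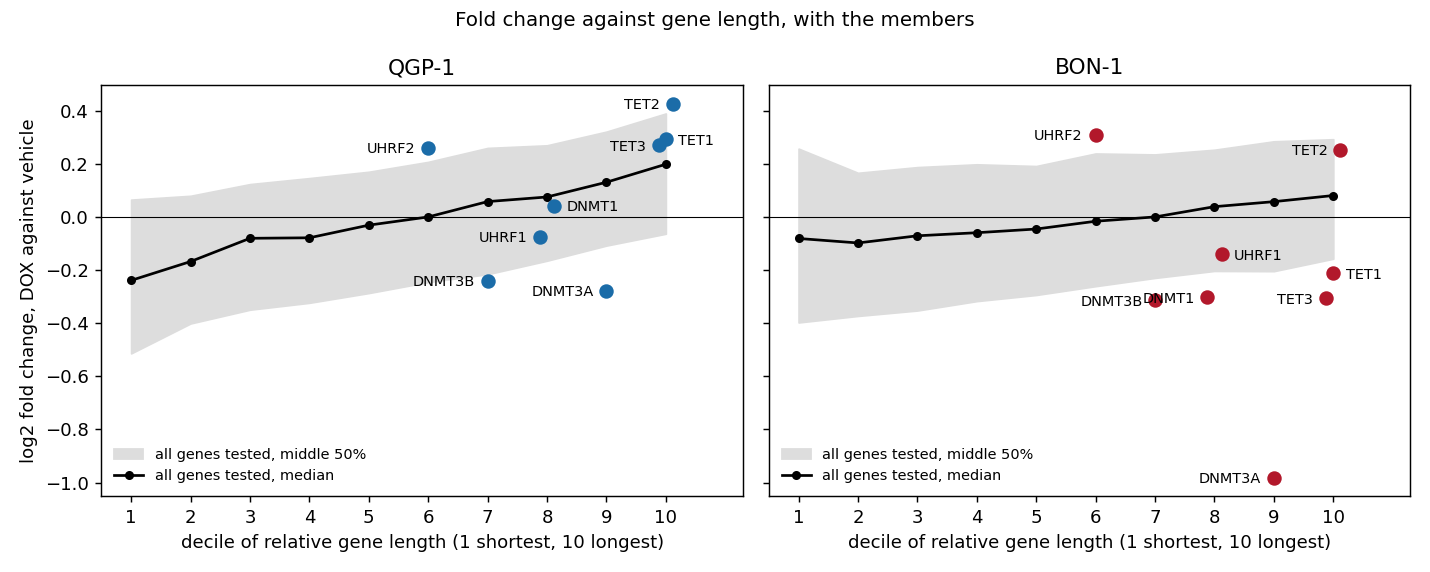
Log2 fold change with DOX (vertical axis) against the decile of relative gene length (horizontal axis, 1 shortest to 10 longest) in each line, with the median and the middle 50% of all genes tested and the 8 genes as points. TET1 and TET3 lie within the grey band in QGP-1 and below it in BON-1, and DNMT3A in BON-1 lies far below.

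Over the 8 genes, 4 had a more negative response in BON-1 than in QGP-1 and 0 a more positive one (edgeR interaction, adjusted p below 0.05). Across the 16598 genes of that fit, 7.92% were more negative and 8.8% more positive in BON-1. The other 4, DNMT3B, UHRF1, UHRF2 and TET2, had unadjusted p-values of 0.660, 0.692, 0.699 and 0.169. The interaction of MUC1 itself was 0.13 (SE 0.344, adjusted p = 0.854). The 2 responses come from separate libraries and share none.

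The vehicle cells of the 2 lines differed for all 8 genes. DNMT1 was higher in BON-1 by 0.43 on the log2 scale (SE 0.0780, adjusted p = 2.61e-05), DNMT3A by 0.70 (SE 0.108, adjusted p = 2.82e-06), UHRF1 by 0.44 (SE 0.0978, adjusted p = 0.000307) and UHRF2 by 1.13 (SE 0.107, adjusted p = 8.50e-10). The TET genes were lower in BON-1, with log2 differences of -0.55 for TET1 (SE 0.0892), -0.35 for TET2 (SE 0.0805) and -0.62 for TET3 (SE 0.100). DNMT3B was lower by a smaller amount (-0.26, SE 0.0989, adjusted p = 0.0232), which was lost without QGP-1 vehicle 2 (adjusted p = 0.0815), BON-1 vehicle 1 (-0.13, 0.209) or BON-1 DOX 2 (0.0578), with library size in place of TMM (0.232) and with at least 10 counts in every library (0.0593). Among all 16598 genes 37.5% were higher and 37.5% lower in BON-1. The line, its medium, its count table and its depth cannot be told apart in this comparison.

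Readers of CpG methylation outside the UHRF pair included 2 genes called higher in both lines. Of 8 genes listed as methyl-CpG readers, 4 were higher and 0 lower in QGP-1 (0 lower also at an unadjusted p below 0.05 and by DESeq2). In BON-1, 3 were higher and 2 lower. These counts and the list medians below include MBD3. MBD2, the methyl-CpG subunit of a NuRD complex, rose in both lines (log2 fold changes 0.28 and 0.49 in QGP-1 and BON-1; adjusted p = 0.00955 and 6.41e-05). ZBTB38, a zinc finger reader, also rose in both (0.25 and 0.60; adjusted p = 0.0295 and 6.22e-07). MBD3, the NuRD subunit that does not read methylation in mammals, fell in BON-1 (-0.62, adjusted p = 0.000362) and was at -0.21 in QGP-1 (adjusted p = 0.291). MBD1 had the greatest change among the readers called in QGP-1 (0.30, adjusted p = 0.0151). The median of the list was 0.20 in QGP-1 and 0.19 in BON-1, against -0.012 and -0.010 for all genes tested. The values of this and the following lists were not corrected for gene length, and their counts stand beside 17.7% lower and 17.3% higher among all genes in QGP-1, and 18.3% and 17% in BON-1.

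Of 9 partners of maintenance methylation at the fork, 3 were lower and 1 higher in QGP-1, and 1 was lower and 0 higher in BON-1 (0 higher also at an unadjusted p below 0.05 and by DESeq2). PCNA, the sliding clamp to which DNMT1 binds, fell in QGP-1 (-0.44, adjusted p = 0.000430) and was at -0.13 in BON-1 (adjusted p = 0.208). HELLS, a remodeler needed for methylation of compact chromatin, fell in BON-1 (-0.41, adjusted p = 0.000939) and was at 0.02 in QGP-1 (adjusted p = 0.897). Of 42 S phase genes other than UHRF1, 16 were lower and 0 higher in QGP-1 (1 higher at an unadjusted p below 0.05 and 1 by DESeq2), and 11 were lower and 2 higher in BON-1. PCNA, HELLS and CDCA7 are counted both here and among the partners above. The S phase list had a median log2 fold change of -0.16 in QGP-1 and -0.13 in BON-1. MCM6, PRIM1, RFC2, WDR76, POLA1 and CHAF1B were among those called lower in both lines. For CHAF1B, a subunit of the chromatin assembly factor at the fork, the log2 fold change was -0.62 in QGP-1 (adjusted p = 0.000215) and -0.65 in BON-1 (adjusted p = 3.22e-05). In such bulk RNA, fewer cells in S phase and less RNA per cell cannot be told apart, and the part of the S phase genes in the fall of DNMT1 was not tested.

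Among 13 partners of de novo methylation and CXXC proteins, 4 of 11 tested were higher and 0 lower in QGP-1 (1 lower at an unadjusted p below 0.05 and 0 by DESeq2), and 2 of 12 were higher and 1 lower in BON-1. SETD2, which writes the H3K36 trimethylation that DNMT3B reads, rose in both lines (0.28 and 0.21; adjusted p = 0.00551 and 0.0315). CXXC4, whose product binds unmethylated CpG and is encoded near TET2, rose in QGP-1 (0.51, adjusted p = 6.76e-05) and was at -0.02 in BON-1 (adjusted p = 0.866). TRIM28, a corepressor that guards methylation at imprinted sites, fell in BON-1 (-0.30, adjusted p = 0.00447) and was at 0.08 in QGP-1 (adjusted p = 0.598). DNMT3L, the catalytically inactive cofactor of the de novo enzymes, had 0 counts in all 12 libraries, which allows up to 0.0785 CPM in a QGP-1 library and 0.188 CPM in a BON-1 library (3 counts, counting error only).

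Base excision can complete demethylation after TET oxidation. Of 12 such genes, 3 were lower and 2 higher in QGP-1, and 4 were lower and 1 higher in BON-1. Among all genes tested, 17.7% were lower and 17.3% higher in QGP-1, and 18.3% and 17% in BON-1. The counts of these 12 genes were not tested against those shares. TDG, the glycosylase that removes oxidized methylcytosine, fell in both lines, from 140 ± 6.78 to 119 ± 2.61 CPM in QGP-1 (SD, n = 3; log2 fold change -0.23, adjusted p = 0.0170) and from 307 ± 6.92 to 218 ± 16.4 CPM in BON-1 (-0.49, adjusted p = 1.02e-05). APEX1, the endonuclease of the next step, fell by 0.23 on the log2 scale in both (adjusted p = 0.0307 and 0.0186). LIG3 rose in QGP-1 (0.22, adjusted p = 0.0333) and fell in BON-1 (-0.45, adjusted p = 0.00125). SMUG1, another glycosylase, fell in QGP-1 (-0.46, adjusted p = 0.00271), and GADD45B, linked to repair-coupled demethylation, rose in BON-1 from a low level (0.70, adjusted p = 0.0154).

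Genes linked to cofactor supply were taken as further lists. Of those listed for the S-adenosylmethionine (SAM) cycle, which feeds the DNMT enzymes, 2 of 9 genes tested were lower and 6 higher in QGP-1. In BON-1, 1 of 7 was lower and 2 higher. In both lines the genes counted as higher include AHCYL1 and AHCYL2, relatives of AHCY whose part in the cycle was not tested. AHCY, which clears the inhibitory product S-adenosylhomocysteine, fell in both lines (-0.56 and -0.41; adjusted p = 5.31e-05 and 0.00104). Its relative AHCYL2 rose in both, from 59.7 ± 1.01 to 104 ± 0.865 CPM in QGP-1 and from 17.8 ± 1.53 to 30.5 ± 3.55 CPM in BON-1 (SD, n = 3; log2 fold changes 0.80 and 0.77, adjusted p = 1.67e-06 and 8.09e-06), and AHCYL1 rose by 0.21 in both (adjusted p = 0.0204 and 0.0406). Of 12 genes of 2-oxoglutarate, the TET cosubstrate, and its competitors, 5 were lower and 0 higher in QGP-1 (0 higher also at an unadjusted p below 0.05 and by DESeq2), and 3 were lower and 1 higher in BON-1. FH, which removes the TET inhibitor fumarate, fell in both lines (-0.33 and -0.31; adjusted p = 0.00606 and 0.00599). SDHD and SDHC, subunits of succinate dehydrogenase, fell in QGP-1 (-0.40 and -0.52; adjusted p = 0.000750 and 0.000183). In BON-1 SDHD rose (0.23, adjusted p = 0.0312), SDHC was at -0.03 (adjusted p = 0.795), and IDH3A fell (-0.36, adjusted p = 0.000383).

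**Figure D5:**
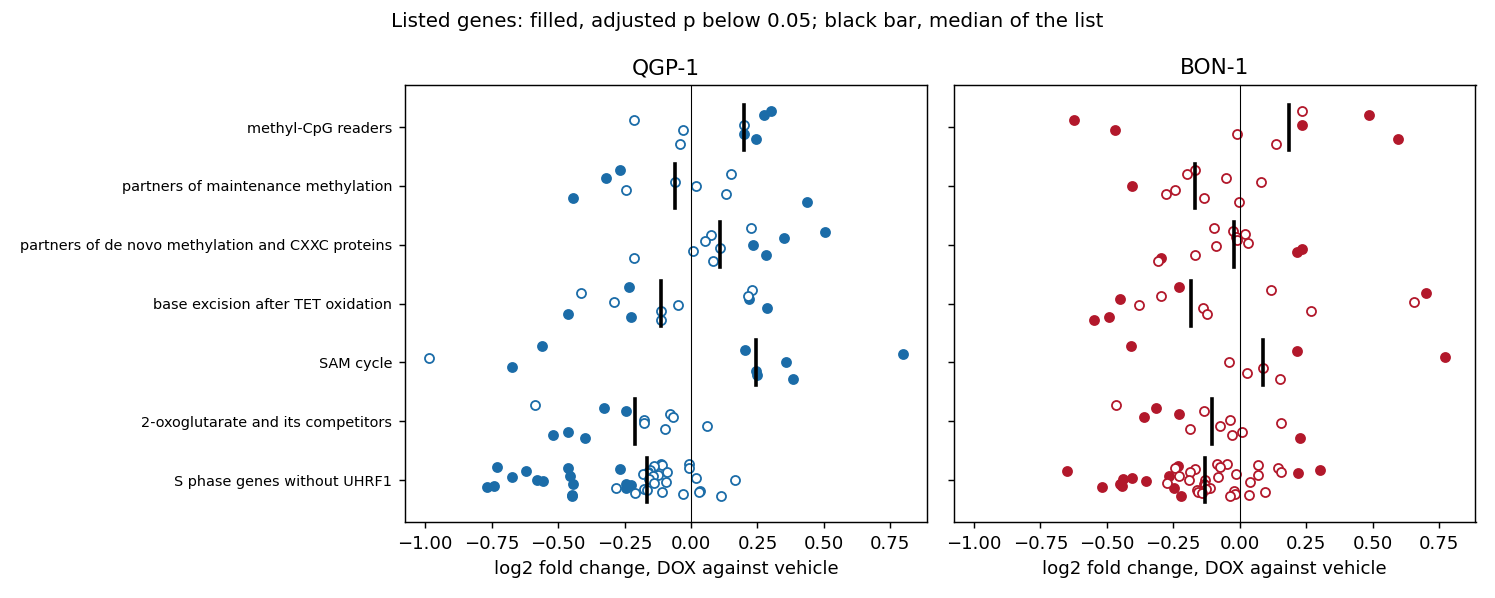
Log2 fold change with DOX (horizontal axis) of each tested gene of 7 lists in QGP-1 (left) and BON-1 (right), filled where the adjusted p was below 0.05, with the median of each list as a black bar. The S phase genes have medians of -0.16 (QGP-1) and -0.13 (BON-1), and the methyl-CpG readers have medians of 0.20 and 0.19.

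Genes whose promoters are commonly methylated in somatic cells were looked at for a readout. Of 21 germline genes, 6 passed the filter in QGP-1 and 1 in BON-1, and 12 of the 21 had 0 counts in all 6 BON-1 libraries. The only call was MAGEA3 in QGP-1, which fell from 6.43 ± 0.746 to 4.34 ± 0.626 CPM (SD, n = 3; log2 fold change -0.57, adjusted p = 0.0170). MAGEA3 shares near-identical sequence with MAGEA6, so its counts are uncertain. In both lines 0 germline genes were called higher by edgeR, at an unadjusted p below 0.05 or by DESeq2.

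For each member the 2 genes with the most similar course were found among 8968 genes, by the root mean square (RMS) difference of log2 CPM over 12 libraries after centring within each line. TET2 was most like RC3H1 and REV3L (RMS 0.0376 and 0.0397), which encode an mRNA decay factor and a translesion polymerase subunit. DNMT3A was most like NFIB and JAG2 (0.0725 and 0.0803), a nuclear factor and a NOTCH ligand. For NFIB the DOX response was -0.24 (log2) for QGP-1 and -0.96 for BON-1. Its likeness to the response of DNMT3A follows from the choice of NFIB by these same libraries. DNMT1 was most like GSE1 (0.0383), DNMT3B like MYO19 and NFYB (0.0673 and 0.0792), and UHRF1 like TMEM8A and WDR1 (0.0618 and 0.0679). UHRF2 was most like RAB12 and MBD4, a glycosylase that binds methyl-CpG (0.0593 and 0.0658). TET1 was most like CLASP1 and ATP2C2 (0.0565 and 0.0689), and TET3 like REXO1 and BCORL1 (0.0684 and 0.0707). Among the members themselves the closest pairs were DNMT1 with UHRF1 (0.104), TET1 with TET3 (0.110) and DNMT1 with TET3 (0.113), and the most distant was DNMT3A with UHRF2 (0.524). This measure also depends on how much a gene moves, as genes that move little lie close together. The RMS of a member around its own line means was 0.117 for UHRF1, 0.132 for DNMT1, 0.152 for TET1 and 0.190 for TET3. It was 0.172 for UHRF2 and 0.372 for DNMT3A.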

How the data were processed

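The authors aligned stranded mRNA reads with STAR to GRCh38 and deposited, for each line, raw counts per gene and TPM values. The counting program, its use of strand and its treatment of reads with several matches are not given in the sources used here, so that reads shared with pseudogenes (DNMT3AP1, TET1P1, UHRF2P1) or overlapping genes are uncertain. For the tests, counts went into edgeR 4.0.16 under R 4.3.3 (default filter on low counts, TMM, quasi-likelihood test, Benjamini-Hochberg adjustment over all genes, threshold 0.05, no minimum fold), 3 against 3 libraries within each line. The difference in response and the vehicle comparison came from 1 fit of 12 libraries. The standard error is the log2 fold change divided by the square root of F. No label ties the cultures to separate passages, so that p-values measure the spread between these cultures. Shares used the deposited TPM. Small nuclear and signal recognition RNAs (RN7SK, RN7SL1, RN7SL2) took 50.9% to 80.3% of the TPM of a library, so shares and ratios of TPM were taken within a library, and TPM was compared across libraries only as an alternative. Alternatives were DESeq2 1.42.0, other scalings and filters, a replicate block, both lines in 1 fit, limma 3.58.1 on log2(TPM + 1), removal of the length trend and leaving out each library. The length trend was chosen for removal after seeing the data. The fits were tested on simulated counts. Members and lists were chosen with earlier results of these data known. Named beside the members are MUC1, genes of each list called in both lines, the called gene with the greatest change per line, and the 2 genes most like each member at a mean log2 CPM of at least 3. Positions come from GENCODE 44 and promoters from RefSeq. Some genes that the naming rule selects are not reported here.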

Additional observations from a re-analysis of the deposited data

Results flagged for a closer look

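Among the members and the listed genes picked by the naming rule, 16 responded differently to DOX in the 2 lines. The test was the edgeR interaction, adjusted over all genes (BON-1 minus QGP-1, log2, adjusted p in brackets). Listed genes outside that rule were also called and are not given here. Across the 16598 genes of the fit, 7.92% were more negative and 8.8% more positive in BON-1. The rule picks listed genes by their DOX response in these same data, so the number 16 cannot be read against those shares. Of the members, the 16 held DNMT1 at -0.33 (0.0393), DNMT3A at -0.69 (0.00297), TET1 at -0.49 (0.00861) and TET3 at -0.57 (0.00761). Of the listed genes under that rule, the response was more negative in BON-1 for HELLS at -0.41 (0.0297), CXXC4 at -0.52 (0.00196), LIG3 at -0.66 (0.000395), IGF2 at -1.75 (8.97e-05), MEG3 at -1.28 (0.00171), CHGA at -1.60 (4.82e-08) and SSTR2 at -2.96 (9.45e-06). It was more positive in BON-1 for ZBTB38 at 0.36 (0.0280), GADD45B at 1.12 (0.0168), SDHC at 0.50 (0.00298), SDHD at 0.64 (0.000363) and PRSS1 at 1.10 (0.00192). Among these, LIG3, SDHD, IGF2 and SSTR2 were called in opposite directions in the 2 lines. No cause was tested.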

How the results depend on the processing

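Settings that ended or made a call on a member are given beside that gene or here, and those of single listed genes are not given. The number of members called lower in QGP-1 (1) was 0 with library size in place of TMM and in 1 fit of both lines, 2 with the replicate block, and 0 to 2 when 1 library was left out. It was 2 with the length trend removed, where 1 member was higher. In BON-1 the number called higher (2) was 1 with library size, 1 with the length trend removed, and 0 to 2 when 1 library was left out. With limma on log2(TPM + 1), 9257 genes were called in QGP-1 and 258 in BON-1, where the members counted 0 lower and 8 higher in QGP-1 and 0 lower and 0 higher in BON-1. On that scale the sign turned for DNMT3A (0.29), DNMT3B (0.42) and UHRF1 (0.53) in QGP-1, and for UHRF2 (-0.047) and TET2 (-0.090) in BON-1. Values near 0 turned elsewhere. DNMT1 in QGP-1 was at -0.030 with the length trend removed and ran from -0.039 (without vehicle 3) to 0.094 when 1 library was left out. The difference between the lines ran from -0.16 to 0.063 for UHRF1 and from -0.032 to 0.13 for UHRF2, which was at -0.012 with library size. The change of the DNMT3B share of the DNMT family in BON-1 ran from -0.75 (without vehicle 1) to 1.72 percentage points. The cause was not tested for any of these. DNMT1, DNMT3A and TET3 in BON-1 and TET1 and TET2 in QGP-1 were called in all 6 fits that left out 1 library.

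Vehicle and DOX libraries with the same replicate number did not deviate together (correlations of -0.021, 0.046 and 0.044 in QGP-1 and -0.039, -0.032 and 0.067 in BON-1), so the numbers were not taken to pair them. With the replicate block, DNMT3A (adjusted p = 0.0454) and TET3 (0.0107) also passed in QGP-1, and 5487 genes were called there and 5064 in BON-1. Depth limits MUC1 with DOX and the germline genes more than the 8 members.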

Other observations

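Imprinted genes, whose expression depends on methylation at control regions, differed widely in level between the lines. Of 20 listed genes, 12 were tested in each line, with 2 lower and 3 higher in QGP-1 and 3 lower and 2 higher in BON-1, near the shares of all genes (17.7% and 17.3% in QGP-1, 18.3% and 17% in BON-1). IGF2, a growth factor expressed from the paternal allele, was at 2470 ± 262 CPM in BON-1 vehicle cells and 0.717 ± 0.340 CPM in QGP-1 vehicle cells (SD, n = 3). With DOX it fell in BON-1 (log2 fold change -0.32, adjusted p = 0.00694) and rose in QGP-1 from that low level (1.45, adjusted p = 0.00957). MEG3, a maternally expressed noncoding RNA, fell in BON-1 from 8.47 ± 2.54 to 3.75 ± 0.971 CPM (-1.16, adjusted p = 0.000312) and was at 0.15 in QGP-1 (adjusted p = 0.390). PEG10, a paternally expressed gene that was picked out after its values were seen, went from 4060 ± 468 to 8211 ± 404 CPM in BON-1 and was at 1.79 ± 0.563 and 2.38 ± 0.381 CPM in QGP-1.

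MTAP, the first enzyme of methionine salvage and also picked out after its values were seen, had 0 counts in all 6 BON-1 libraries, which allows up to 0.188 CPM in a library (3 counts, counting error only). In QGP-1 it was at 55.2 ± 0.310 CPM with vehicle and 65.4 ± 4.18 CPM with DOX (SD, n = 3).

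Among the marker genes of the cells themselves, CHGA, a granule protein of neuroendocrine cells, fell in BON-1 (log2 fold change -1.46, adjusted p = 2.45e-11) and was at 0.15 in QGP-1 (adjusted p = 0.158). SSTR2, a somatostatin receptor, rose in QGP-1 (2.22, adjusted p = 1.66e-05) and fell in BON-1 (-0.75, adjusted p = 0.0263), and SCG3 rose in both (0.34 and 0.27, adjusted p = 0.00291 and 0.0131). PRSS1, a trypsinogen of acinar cells, fell in both lines (-1.83 and -0.75, adjusted p = 4.68e-06 and 1.67e-05). CD68, a lysosomal protein abundant in macrophages, rose in BON-1 (1.00, adjusted p = 4.33e-09) and LYZ in QGP-1 (0.64, adjusted p = 0.000806). CD68 was at 0.30 in QGP-1 (adjusted p = 0.604), and LYZ was at 0.66 in BON-1 (adjusted p = 0.109). The edgeR interaction was not called for CD68 (adjusted p = 0.101) or LYZ (0.975).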
